A study of Mus musculus with 6 samples.

Results

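The genes described here encode the cardiac myosin chains and the kinases that act on their light chains, 10 genes of the 46452 in the table, taken by name: the heavy chains Myh6, Myh7 and Myh7b, the light chains Myl1, Myl2, Myl3, Myl4 and Myl7, and the light chain kinases Mylk3 and Mylk4. Each gene name matched 1 row. RNA came from hearts of mice aged 10 days, with 3 libraries labelled Nat10 flox/flox (homozygous for a loxP-flanked allele of Nat10, the RNA acetyltransferase gene) and 3 labelled Nat10-CKO (a conditional knockout of the same gene). The sources used here do not name the Cre driver, the strain or the deleted exons, nor do they say whether the flox/flox mice carried Cre. The labels call the libraries independent biological replicates, and the series asks how NAT10 affects the developing heart.

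A cardiac myosin molecule is a pair of heavy chains, which hold the motor and the tail, and each heavy chain carries an essential and a regulatory light chain. In the mouse heart the fast alpha heavy chain of Myh6 is the main adult form, while the slow beta chain of Myh7 is known for the fetal ventricle and for its return under stress. Regulatory light chains are phosphorylated by myosin light chain kinases, which tunes the force of contraction.

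FPKM counts fragments for each kilobase of a gene and corrects for the size of the library. Groups were compared with limma on log2(FPKM + 1) over the 11996 genes with a mean of at least 1 FPKM, with Benjamini-Hochberg adjustment over all of them, and an adjusted p under 0.05 is called past the threshold. Recovered reads in genes numbered 31155521 to 38051266 per library. Nat10 itself stood at 3.75, 4.18 and 4.71 FPKM in the flox/flox libraries and at 8.28, 8.66 and 10.2 FPKM across those labelled Nat10-CKO. A knockout label alone would lead a reader to look for a lower level. FPKM sums the whole gene and does not show whether the deleted exons were read. Whether the labels hold was therefore not tested, and directions below refer to the labels. Nat10 flox/flox replicate 1 and Nat10-CKO replicate 1 were judged, after the data were seen, to stand apart from the others of their group. No measure behind this is given here for Nat10-CKO replicate 1. The summed level of 12 nerve and ganglion markers was 429 FPKM in Nat10 flox/flox replicate 1 and 6.05 to 16.6 FPKM in the other libraries. In tissue samples, fewer cells of a type and less RNA per cell cannot be told apart.

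Of the 10 myosin genes, 8 passed the filter on low values, and Myl4 and Myl7 did not. In libraries labelled Nat10-CKO, Myh7 was higher, Mylk4 and Myl1 were lower, and 5 genes did not pass the threshold (Myh6, Myh7b, Myl2, Myl3 and Mylk3). Across all tested genes 24.4% were called higher and 16.0% lower, 40.5% in either direction, so 3 called of 8 is near the background. What stands out in this family is the size of 2 changes: the log2 fold change of Myh7 ranked 5 from the top of the 11996 tested genes and that of Mylk4 ranked 7 from the bottom. Over the 8 tested members the log2 fold change had a median of -0.53, beside 0.03 over all tested genes. Myh7, Mylk4 and Myl1 also passed without both libraries that stand apart, with log2 fold changes of 5.19, -2.81 and -0.93.

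**Figure D1:**
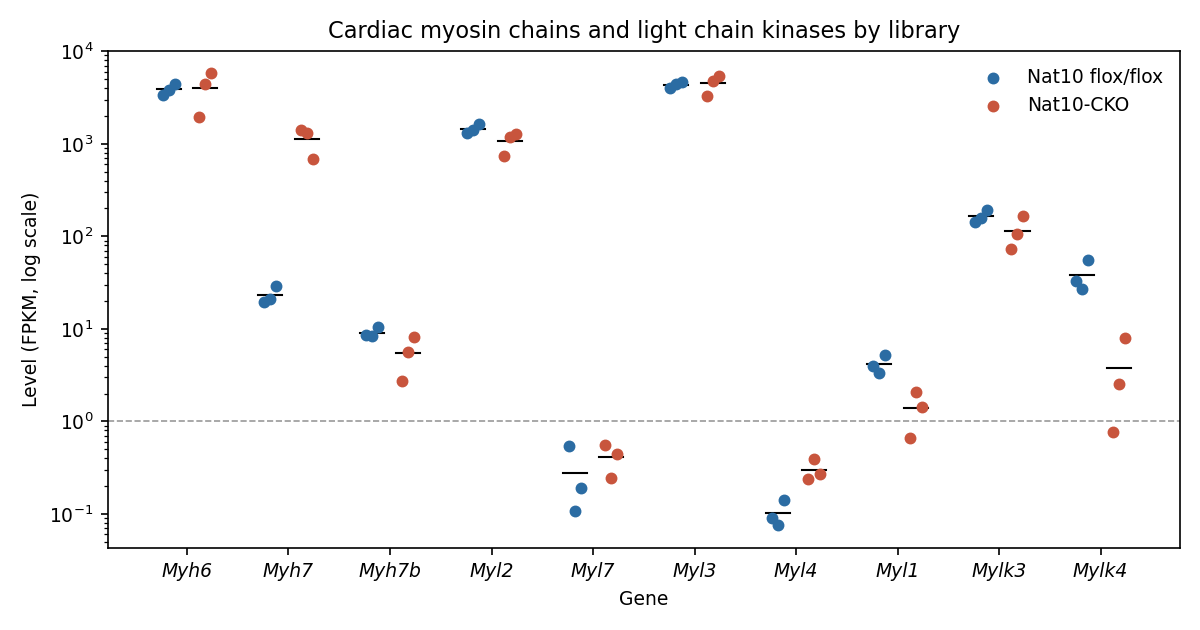
Level of each myosin gene in FPKM on a log axis, with 1 point per library (blue, Nat10 flox/flox; red, Nat10-CKO), black bars at group means and a dashed line at 1 FPKM. Myh7 and Mylk4 move in opposite directions, while Myh6 and Myl3 stay near the top of the axis in both groups.

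Myh7, the slow beta heavy chain (gene ID 140781, chromosome 14, 55208141 to 55232083, minus strand of GRCm39) stood at 19.5, 21.2 and 29.2 FPKM in the flox/flox libraries. It was at 1394, 1322 and 676 FPKM across the Nat10-CKO libraries. Every Nat10-CKO library lay far above every flox/flox library, and Nat10-CKO replicate 3 was the lowest of its group. The means were 23.3 ± 5.17 FPKM and 1130.5 ± 395 FPKM (SD, 3 libraries each). That is a 48.5-fold difference, which ranged from 42.9-fold to 58.3-fold with any library left out. The log2 fold change was 5.49 ± 0.31 (SE), with a limma adjusted p of 0.000167. These values rest on 4456 to 6880 reads per flox/flox library and 152387 to 340624 reads per Nat10-CKO library.

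Myh6, the fast alpha heavy chain (gene ID 17888, chromosome 14, 55179378 to 55205553, minus strand), lies beside Myh7 on the same strand. It was at 3397, 3817 and 4385 FPKM in the flox/flox libraries and at 1958, 4401 and 5767 FPKM in the Nat10-CKO libraries. The Nat10-CKO libraries spanned the whole flox/flox range, from Nat10-CKO replicate 1 below it to replicate 3 above it. Myh6 did not pass the threshold (log2 fold change -0.06, 95% interval -1.01 to 0.88, limma adjusted p = 0.91), and that wide interval leaves a sizeable change in either direction possible. Its sign turned under quantile normalization (0.18), when the protein-coding genes were put on a common total (0.09), and without Nat10-CKO replicate 1 (0.39).

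The balance of both heavy chains within a library does not depend on the scaling between libraries. Myh7 made up 0.570%, 0.553% and 0.661% of the summed FPKM of Myh6 and Myh7 in the flox/flox libraries. In the libraries labelled Nat10-CKO it made up 41.6%, 23.1% and 10.5%. The groups did not overlap, and the share in Nat10-CKO replicate 1 was the highest. The mean share went from 0.595% ± 0.0581 to 25.1% ± 15.6 (SD, n = 3 per group), a difference of 24.5 percentage points, or 16.2 without Nat10-CKO replicate 1. The exact two-sided permutation test gave p = 0.1, the smallest that 3 against 3 libraries allow (0.133 adjusted over the 4 shares tested). The summed level of both chains was 3416, 3838 and 4414 FPKM in the flox/flox libraries and 3351, 5722 and 6443 FPKM across those labelled Nat10-CKO, so the sums overlapped while the shares did not.

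**Figure D2:**
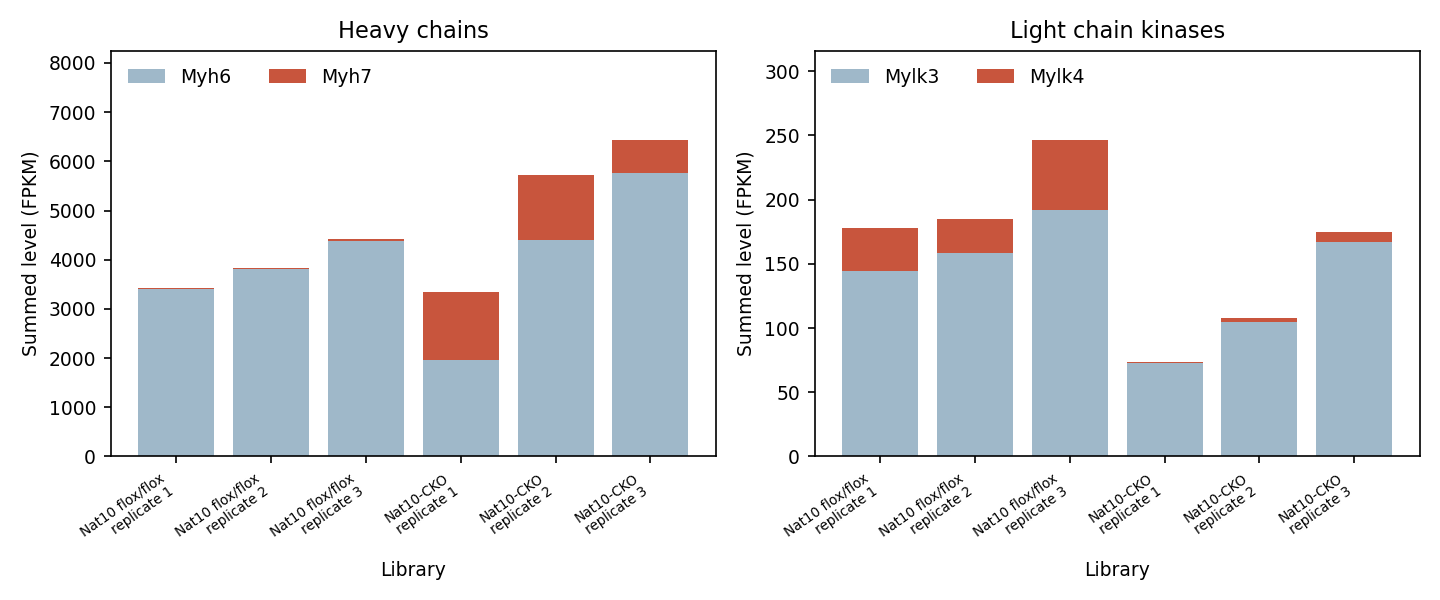
Stacked levels in FPKM per library of both alpha and beta heavy chains (left) and of both cardiac light chain kinases (right). Myh7 is 41.6%, 23.1% and 10.5% of the heavy chain sum in the Nat10-CKO libraries, and Mylk4 is at most 4.51% of the kinase sum there.

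Reads can be told apart between these neighbours only where their sequences differ. The coding sequences of the GENCODE canonical transcripts of Myh7 and Myh6 were identical at 5322 of 5800 aligned bases (91.8%). Of all stretches of 150 bases in the Myh7 transcript, the length of a single read, 5.51% also occurred letter for letter in the Myh6 transcript. The sources used here do not say how reads that match both genes were treated, so part of the low Myh7 level in the flox/flox libraries is uncertain. Shown first are the 90 coding bases in which the genes differ most within a single exon of each (30 differing bases, in capitals), from exon 27 of Myh7 (chr14:55217779-55217868, minus strand, GRCm39) and exon 25 of Myh6 (chr14:55189704-55189793, minus strand). The third sequence is the longest run without a difference, 245 bases, which starts at coding base 4240 of Myh7 and 4246 of Myh6 and spans more than a single exon.
Myh7: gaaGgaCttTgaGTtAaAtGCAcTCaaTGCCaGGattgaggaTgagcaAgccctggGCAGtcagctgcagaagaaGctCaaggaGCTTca
Myh6: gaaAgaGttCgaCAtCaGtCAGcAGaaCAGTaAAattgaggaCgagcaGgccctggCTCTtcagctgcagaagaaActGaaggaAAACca
Myh7 and Myh6: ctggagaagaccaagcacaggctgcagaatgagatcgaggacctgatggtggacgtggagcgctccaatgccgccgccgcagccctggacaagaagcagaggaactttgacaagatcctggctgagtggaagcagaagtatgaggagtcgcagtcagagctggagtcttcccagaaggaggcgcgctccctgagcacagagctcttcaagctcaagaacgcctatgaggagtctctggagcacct

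Myh7b (gene ID 668940, chromosome 2, 155453129 to 155476227, plus strand), a slow-type heavy chain gene known mainly as the host of miR-499, was the least abundant of the 3 heavy chains of the family described here. It was at 8.62, 8.33 and 10.4 FPKM in the flox/flox libraries and at 2.71, 5.61 and 8.16 FPKM across the Nat10-CKO libraries. All Nat10-CKO values lay below all flox/flox values, but the gene did not pass the threshold (log2 fold change -0.73, 95% interval -1.47 to 0.02, limma adjusted p = 0.106). Groups that do not overlap were common, at 55.9% of all tested genes. Myh7b passed without Nat10-CKO replicate 3 (-1.03, limma adjusted p = 0.0293). No stretch of 50 bases was shared between the Myh7 and Myh7b transcripts, whose coding sequences were 73.1% identical.

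Among the essential light chains, Myl3 (gene ID 17897, chromosome 9, 110592746 to 110598870, plus strand), the ventricular form, was by far the most abundant. It was at 3988, 4479 and 4621 FPKM in the flox/flox libraries and at 3307, 4745 and 5443 FPKM in the Nat10-CKO libraries. The groups overlapped, and Myl3 did not pass the threshold (log2 fold change 0.02, 95% interval -0.51 to 0.55, limma adjusted p = 0.96). Its sign depended on the scaling, from -0.10 with mitochondrially encoded genes left out to 0.38 under quantile normalization, where it passed (limma adjusted p = 0.0485).

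Myl1 (gene ID 17901, chromosome 1, 66963454 to 66987091, minus strand), the essential light chain of fast skeletal muscle, was lower in the libraries labelled Nat10-CKO. It was at 3.99, 3.35 and 5.27 FPKM in the flox/flox libraries and at 0.654, 2.07 and 1.45 FPKM in the others. The groups did not overlap, and the means of 4.2 ± 0.977 and 1.39 ± 0.707 FPKM (SD, 3 libraries each) differed 3.03-fold (log2 fold change -1.15 ± 0.25 SE, limma adjusted p = 0.0118). The fold difference was 2.39 without Nat10-CKO replicate 1 and 4.0 without replicate 2. At such low levels the pseudocount of 1 shrinks the log2 fold change, which was -1.63 with a pseudocount of 0.1. The table gives Myl1 a length of 3151 bases, against 1182 in the GENCODE canonical transcript. Of 18 skeletal muscle markers 2 were tested and 1 was called, Mybpc2, which was higher and is described among the partners of myosin. The other 17 summed to 3.54 to 7.70 FPKM in the flox/flox and 4.0 to 4.94 FPKM in the Nat10-CKO libraries, ranges that overlap, and Myf5 was at 0 in all 6. Within that sum, 3 genes had groups that did not overlap, and not all in the same direction. All were too low to test and picked after their values were seen. Cacna1s, the skeletal calcium channel gene, was at 0.924 to 1.44 FPKM in the flox/flox and 0.0450 to 0.0887 FPKM in the Nat10-CKO libraries, and Tnnt3, the fast troponin T gene, at 0.243 to 0.756 FPKM and 1.26 to 1.5 FPKM, with no overlap for either. The skeletal heavy chains Myh1, Myh2, Myh3, Myh4, Myh8 and Myh13 were each under 0.1 FPKM in every library. Of them, only Myh8 had groups that did not overlap. It held 0 reads in each flox/flox library and 21, 13 and 16 reads in the Nat10-CKO libraries.

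Myl4 (gene ID 17896, chromosome 11, 104427604 to 104478041, plus strand), the essential light chain of the atria and the embryonic heart, was too low to test. It was at 0.0903, 0.0755 and 0.143 FPKM (60, 39 and 83 reads) in the flox/flox libraries and at 0.236, 0.388 and 0.267 FPKM (142, 220 and 148 reads) in the libraries labelled Nat10-CKO. The groups did not overlap, and with no filter on low values Myl4 was called higher (limma adjusted p = 0.0446). The table gives Myl4 a length of 16315 bases, against 943 in the GENCODE canonical transcript, and this long model overlaps Cdc27 on the other strand, so its FPKM and the origin of its reads are uncertain. Scaled to the canonical length, the same reads gave 1.31 to 2.48 FPKM and 4.09 to 6.72 FPKM, still under 1% of Myl3. By reads, Myl4 was 0.0302% to 0.0553% of Myl1, Myl3 and Myl4 together in the flox/flox and 0.0879% to 0.146% in the Nat10-CKO libraries. For the FPKM shares the exact permutation test gave p = 0.1.

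Of the regulatory light chains, Myl2 (gene ID 17906, chromosome 5, 122230787 to 122251536, plus strand), the ventricular form, was at 1296, 1401 and 1644 FPKM in the flox/flox libraries. It was at 746, 1175 and 1286 FPKM across those labelled Nat10-CKO. All 3 lay below the lowest flox/flox library, the nearest by less than 10 FPKM, and Myl2 did not pass the threshold (log2 fold change -0.47, 95% interval -1.03 to 0.10, limma adjusted p = 0.159). Set against Myl3 in the same library, Myl2 stood at 32.5, 31.3 and 35.6 FPKM per 100 FPKM of Myl3 in the flox/flox libraries and at 22.6, 24.8 and 23.6 in the libraries labelled Nat10-CKO. This ratio was picked after its values were seen and has no test. The table gives Myl2 a length of 2583 bases, against 828 in the canonical transcript, so the ratio is comparable between libraries and understates Myl2 against Myl3.

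Myl7 (gene ID 17898, chromosome 11, 5846637 to 5848782, minus strand), the regulatory light chain of the atria, was nearly absent. It was at 0.541, 0.107 and 0.191 FPKM (13, 2 and 4 reads) in the flox/flox libraries and at 0.552, 0.244 and 0.449 FPKM (12, 5 and 9 reads) in the libraries labelled Nat10-CKO. The groups overlapped, a difference was not detectable at this depth, and the share of Myl7 in Myl2 plus Myl7 stayed under 0.1% in all 6 libraries (exact permutation p = 0.3). The labels give the tissue as heart and do not say whether the atria were kept, so the low Myl4 and Myl7 levels describe the sampled tissue, whatever it held of the atria. Sln, Mybphl and Bmp10, the markers of the atrial list most restricted to atrial muscle, together summed to 0.0495 to 0.611 FPKM in the flox/flox and 0.0231 to 0.294 FPKM in the Nat10-CKO libraries, with Bmp10 at 0 throughout. Other genes of that list, which are less restricted to the atria, were expressed in the flox/flox libraries (picked after their values were seen). The potassium channel gene Kcnj5 was at 15.6 to 17.2 FPKM there and 11.3 to 20.5 FPKM in the Nat10-CKO libraries. For the potassium channel gene Kcna5 these ranges were 13.1 to 14.7 FPKM and 7.37 to 11.8 FPKM. For the transcription factor gene Tbx5 they were 6.28 to 7.84 FPKM and 3.79 to 8.33 FPKM, and none of these genes was called. Kcnj3, also a potassium channel gene, was called lower, at 5.15 to 6.43 FPKM and 0.363 to 0.830 FPKM (limma adjusted p = 0.000287). Of the 16 genes of the list, which also holds the mesothelial gene Upk3b, 10 were tested. Of these, 2 were higher (Nppa and Clu) and 2 lower (Kcnj3 and Stard10). That is near the 24.4% called higher and 16.0% called lower over all tested genes. Nppa, the natriuretic peptide gene counted among them, was at 119 to 243 FPKM and 8008 to 13522 FPKM.

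Mylk4 (gene ID 238564, chromosome 13, 32884807 to 32967947, minus strand), a muscle member of the myosin light chain kinase family, was the member that fell most. It was at 33.2, 26.8 and 55.0 FPKM in the flox/flox libraries and at 0.771, 2.55 and 7.88 FPKM across the Nat10-CKO libraries. The groups were well apart, with Nat10-CKO replicate 3 the highest of its group and replicate 1 the lowest. Mean levels of 38.3 ± 14.8 FPKM and 3.73 ± 3.70 FPKM (SD, 3 libraries each) differed 10.3-fold, or 23.1-fold without Nat10-CKO replicate 3. The log2 fold change was -3.30 ± 0.57 (SE), with a limma adjusted p of 0.00503.

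Mylk3 (gene ID 213435, chromosome 8, 86050933 to 86112969, minus strand), the cardiac myosin light chain kinase that phosphorylates the ventricular regulatory light chain, was the more abundant kinase in all libraries. It was at 144, 158 and 192 FPKM in the flox/flox libraries and at 72.7, 105 and 167 FPKM in the Nat10-CKO libraries. Nat10-CKO replicate 3 lay inside the flox/flox range, and Mylk3 did not pass the threshold (log2 fold change -0.59, 95% interval -1.30 to 0.12, limma adjusted p = 0.158). Without that library it did (-0.90, limma adjusted p = 0.0242). Mylk4 made up 18.7%, 14.5% and 22.3% of the summed FPKM of both kinases in the flox/flox libraries and 1.05%, 2.37% and 4.51% in the libraries labelled Nat10-CKO. The groups did not overlap, and the exact two-sided permutation test gave p = 0.1 (0.133 adjusted over the 4 shares). The table gives Mylk3 a length of 4111 bases, against 2666 in the canonical transcript. At canonical lengths the Mylk4 share was 14.4%, 11.1% and 17.4% in the flox/flox libraries. It was then 0.772%, 1.75% and 3.35% in the libraries labelled Nat10-CKO, again without overlap.

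**Figure D3:**
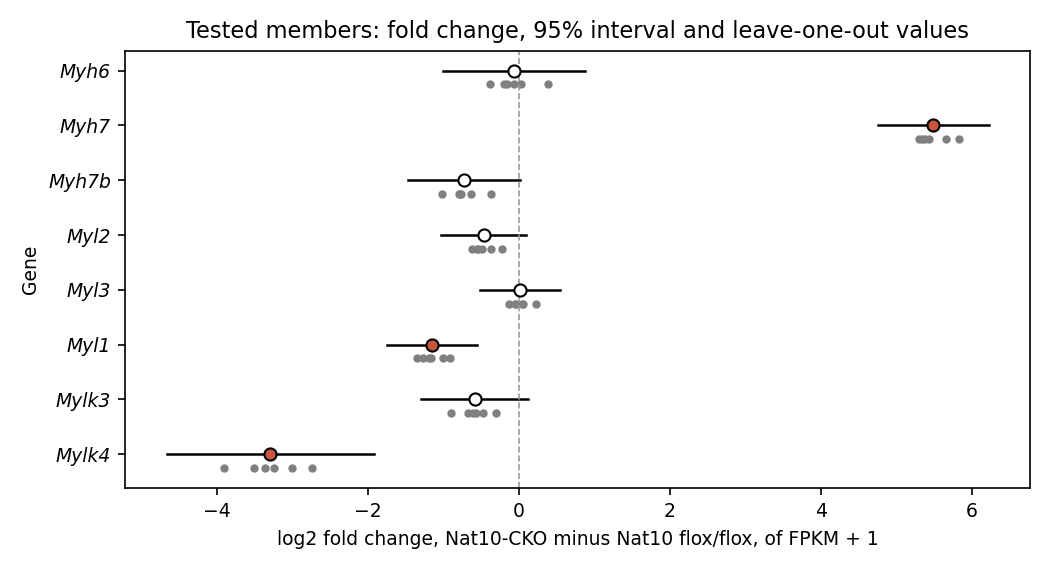
Log2 fold change of FPKM + 1 (Nat10-CKO minus Nat10 flox/flox) of the 8 tested myosin genes, with 95% intervals from limma; filled points passed the threshold and small grey points are the values with each library left out. Myh7 (5.49), Mylk4 (-3.30) and Myl1 (-1.15) stay on their side of 0 with any library left out, and Myh6 and Myl3 cross it.

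The introns of the heavy chain genes hold a microRNA family, of which Mir208a lies in intron 29 of Myh6, Mir208b in intron 31 of Myh7 and Mir499 in intron 19 of Myh7b. Mature RNAs of this family are shown because the Mir208b row and its host Myh7 moved in opposite directions. Their sequences are from RefSeq (table build GRCm38.p6). Each was found letter for letter in GRCm39 at the coordinates given in the expression table. Capitals mark the seed, bases 2 to 8, which miR-208a-3p and miR-208b-3p share, while that of miR-499-5p is not identical.
miR-208a-3p: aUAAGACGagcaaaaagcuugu
miR-208b-3p: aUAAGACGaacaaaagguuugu
miR-499-5p: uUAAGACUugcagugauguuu

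The row for Mir208b (chromosome 14, 55213157 to 55213233, minus strand) was lower in the libraries labelled Nat10-CKO although its host Myh7 was higher. It held 826, 687 and 916 reads in the flox/flox libraries and 49, 93 and 110 reads in the libraries labelled Nat10-CKO. In FPKM this was 263, 282 and 335 against 17.3, 34.8 and 42, with no overlap, a 9.35-fold difference (log2 fold change -3.27 ± 0.32 SE, limma adjusted p = 0.000621). Against these, Myh7 itself held 5261, 4456 and 6880 reads and 340624, 304324 and 152387 reads. The row is 77 bases long, shorter than a read of 150 bases, so the counted fragments also cover the intron around it, and poly-T selection does not capture mature microRNAs. The row for Mir208a, which rests on 8 to 35 reads per library, was lower too (log2 fold change -1.19, limma adjusted p = 0.00621), and Mir499 had 0 reads in all 6 libraries. The hairpin of Mir208b, as it is counted in the table, reads as follows.
Mir208b: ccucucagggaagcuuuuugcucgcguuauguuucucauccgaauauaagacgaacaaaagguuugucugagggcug

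Noncoding RNAs on the opposite strand of this locus were lower as well, and were picked after their values were seen. Mhrt (chromosome 14, 55206244 to 55211806, plus strand), a heart-enriched RNA that runs antisense to Myh7, was at 26.7, 23.1 and 29.9 FPKM in the flox/flox and 4.55, 10.2 and 12.9 FPKM in the Nat10-CKO libraries (log2 fold change -1.53 ± 0.33 SE, limma adjusted p = 0.0111). Gm31251 (55213460 to 55228616, plus strand), also antisense to Myh7, had a log2 fold change of -1.65 (limma adjusted p = 0.00306). Gm52092 (55188497 to 55192424, plus strand), antisense to Myh6, had a log2 fold change of -2.34 (limma adjusted p = 0.00247). In each of these rows every Nat10-CKO library lay below every flox/flox library. The canonical Mhrt transcript shares 889 of its 1865 bases with exons of Myh7 on the other strand. The counted Mhrt row is only 828 bases long, and its own overlap with Myh7 was not measured. The library kit kept strand, but the sources used here do not say whether counting used it, so reads of both strands, those of the Mir208b row included, cannot be told apart.

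**Figure D4:**
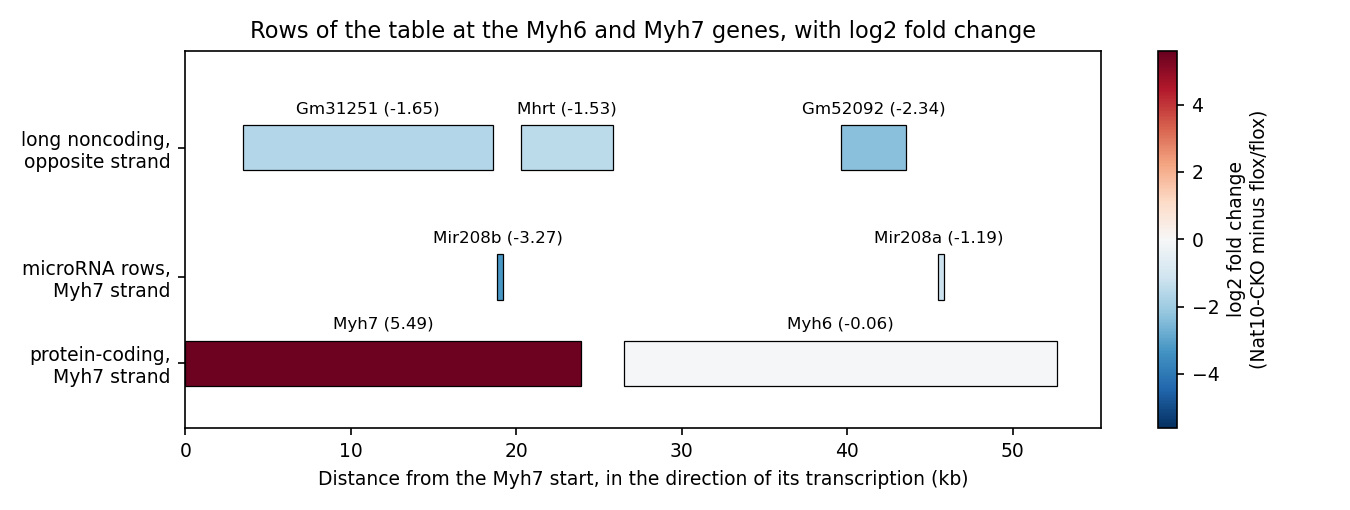
Rows of the expression table at Myh7 and Myh6, placed by distance in kb from the Myh7 start along its transcription (microRNA rows are drawn wider than to scale) and coloured by log2 fold change, which stands in brackets. Myh7 is higher (5.49) while the Mir208b row inside it (-3.27) and the opposite-strand RNAs Mhrt, Gm31251 and Gm52092 are lower.

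The 250 bases before the start were read from RefSeq (table build GRCm38.p6; of several starts, the first listed) for Myh7 and Mylk4, the members with the largest changes, and for Myh6, the neighbour of Myh7 that did not pass. All were found at a single place in GRCm39, at chr14:55232084-55232333 for Myh7, chr13:32967948-32968197 for Mylk4 and chr14:55204065-55204314 for Myh6, all on the minus strand. The RefSeq start of Myh6 lies inside the table's gene, whose outer end is at 55205553. Capitals mark matches, on either strand, to motifs of muscle genes. The MCAT element was searched as CATTCC and the E-box as CANNTG. The motif of GATA factors was searched as AGATAN and also, with the same rule that its last base be A or G, as TGATAN. The nuclear receptor half-site was searched as AGGTCA and the TATA box as TATAAA, and the CArG box and the MEF2 site were searched too. No 2 matches overlap in these windows.
Myh7: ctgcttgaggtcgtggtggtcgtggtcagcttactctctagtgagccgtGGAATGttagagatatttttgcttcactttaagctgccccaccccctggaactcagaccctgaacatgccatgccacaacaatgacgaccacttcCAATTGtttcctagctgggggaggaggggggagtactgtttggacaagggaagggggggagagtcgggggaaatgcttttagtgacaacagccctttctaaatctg
Myh6: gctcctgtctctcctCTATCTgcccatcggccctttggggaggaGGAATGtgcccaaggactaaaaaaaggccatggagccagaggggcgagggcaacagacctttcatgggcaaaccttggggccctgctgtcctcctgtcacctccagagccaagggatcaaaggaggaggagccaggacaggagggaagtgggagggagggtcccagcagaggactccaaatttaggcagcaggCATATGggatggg
Mylk4: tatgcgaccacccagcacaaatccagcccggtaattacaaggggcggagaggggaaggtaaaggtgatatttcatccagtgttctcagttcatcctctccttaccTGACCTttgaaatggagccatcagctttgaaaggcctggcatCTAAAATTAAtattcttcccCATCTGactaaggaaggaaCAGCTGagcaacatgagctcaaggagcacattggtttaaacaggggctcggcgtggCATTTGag
Myh7 held 1 MCAT match (positions -201 to -196 from the start) and 1 E-box, and Myh6 held 1 MCAT match (-206 to -201), 1 GATA and 1 E-box. RefSeq gives Myh7 a second start, at 55232006, whose window of 250 bases held 0 MCAT matches and 2 E-boxes. Mylk4 held 3 E-boxes, 1 nuclear receptor half-site and 1 MEF2 site (-103 to -94), and no MCAT. Over 32851 RefSeq windows of the same length, 12.6% held an MCAT match, 66.2% an E-box, 26.5% a GATA match, 14% the half-site and 2.92% a MEF2 site. These matches describe letters only and say nothing of binding.

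Around the myosin genes, the partners of the thick filament were higher for 5 of 11 tested genes and lower for 0, beside 24.4% called higher and 16.0% called lower over all tested genes. Mybpc2, the fast-type myosin binding protein C, went from 4.06 ± 1.58 to 45.0 ± 4.56 FPKM (11.1-fold, limma adjusted p = 0.000262), and the M-band gene Myom2 from 270 ± 39.9 to 450 ± 55.5 FPKM (both SD, n = 3 per group). Factors that fold and assemble myosin were higher for 6 of 12 and lower for 0, beside the same 24.4% and 16.0%. The chaperone gene Hsp90aa1 went from 43.5 ± 16.9 to 195 ± 45.5 FPKM, while Unc45b, the muscle-restricted myosin chaperone gene, and Smyd1, a muscle methyltransferase gene, were not called (both picked after their values were seen). The median log2 fold change was 0.18 for the partners and 0.57 for the folding factors.

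Among the other kinases and phosphatase subunits that set light chain phosphorylation, 5 of 13 tested genes were higher and 3 lower. This stands beside 24.4% called higher and 16.0% called lower over all tested genes. Dapk3, a kinase that can phosphorylate regulatory light chains, went from 13.0 ± 0.956 to 34.2 ± 4.21 FPKM, and Ppp1r12a, the targeting subunit of myosin phosphatase, from 10.3 ± 0.215 to 39.5 ± 11.2 FPKM. Smooth muscle and non-muscle myosin chains were higher for 2 of 8 and lower for 3, against the same background of 24.4% and 16.0%. Myl12a, a non-muscle regulatory light chain, went from 204 ± 23.9 to 468 ± 110 FPKM, and Myl12b, its near copy, from 57.3 ± 13.6 to 33.2 ± 3.44 FPKM. Reads of Myl12a and Myl12b may be split between them.

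Of 38 tested regulators of myosin gene transcription, 11 were higher and 1 lower, and the share called higher is close to the 24.4% over all tested genes (16.0% were called lower). Rcan1, a calcineurin regulator and target, was 12-fold higher, Nkx2-5 3.95-fold and Gata4 3.05-fold, and Hopx, a homeodomain cofactor of cardiac muscle, was 5.37-fold lower. Of 3 thyroid hormone genes picked after their values were seen, the receptor genes Thra and Thrb were not called. Dio2, the deiodinase that activates thyroid hormone, was low and called higher, at 0.215 to 0.300 FPKM and 1.29 to 4.39 FPKM. The list's median log2 fold change was -0.05, beside 0.03 over all tested genes.

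**Figure D5:**
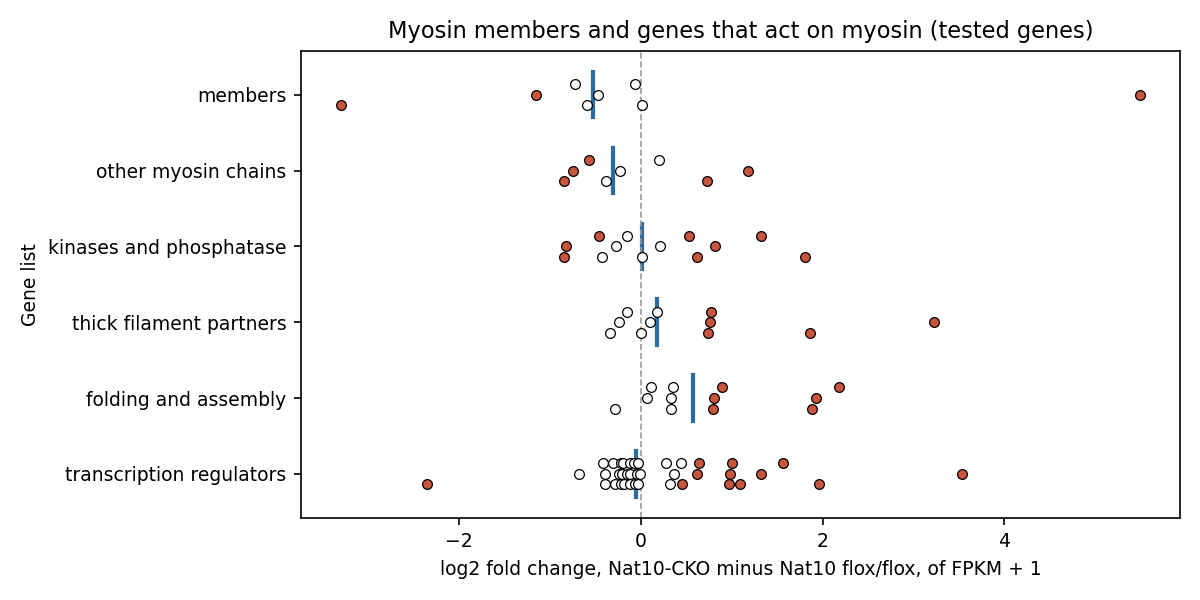
Log2 fold change of FPKM + 1 (Nat10-CKO minus Nat10 flox/flox) of tested genes in the myosin family and in 5 lists of genes that act on or beside myosin; filled points passed the threshold and blue bars are list medians. The members reach both the highest (Myh7, 5.49) and the lowest (Mylk4, -3.30) value plotted.

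Some markers of cardiomyocytes and of other cells moved beside these genes, and their part in the results was not tested. The counts below stand beside 24.4% called higher and 16.0% called lower over all tested genes. Of 12 general cardiomyocyte markers 2 were higher, 2 lower and 8 not called, with sums of 18065 to 21703 FPKM and 14345 to 18009 FPKM. Of 11 tested ventricular markers 1 was higher and 6 were lower, and Pln is counted as lower in both of these lists. All 8 endothelial markers were lower (sums of 349 to 415 FPKM and 210 to 213 FPKM), 0 of 8 fibroblast markers were called, and of 9 tested smooth muscle and pericyte markers 2 were higher and 6 lower. Of 9 tested macrophage and blood markers 3 were lower, all genes of red cells. Mitochondrially encoded genes took 16.6% to 18.3% of reads in the flox/flox and 7.56% to 9.26% in the Nat10-CKO libraries.

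The genes whose log2(FPKM + 1) over the 6 libraries was most like that of Myh7 were Zfp651, Rhod and Fbl, the gene of the nucleolar methyltransferase fibrillarin, with Pearson correlations of at least 0.999. For Mylk4 they were Sobp, Dgat2 and Hmcn2 (0.995 to 0.997), and for Myh6 Mrpl37, Polg2 and Fuom (0.993 to 0.998). For Myh7 and Mylk4 such values mostly carry the gap between the groups, and for Myh6 the spread within them.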

How the data were processed

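Per the series' design text, the authors aligned reads to GRCm39 with HISAT2 2.2.1 and counted with featureCounts 2.0.6. CASAVA and DESeq2 1.42.0 appear too, per the submitters' processing notes. What the authors deposited is a table of FPKM for each gene and library, beside gene lengths. Multiplied by gene length and divided by a single step per library, 100% of FPKM values were whole reads (tolerance 0.01 read), so reads per gene were recovered. The library denominators were 0.948 to 1.07 times the total reads, so the values carry a scaling other than totals.

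All genes were fitted with limma 3.58.1 in R 4.3.3 (eBayes with a trend, pseudocount 1, mean of at least 1 FPKM). The fit was also run on simulated reads with the same dispersion for all genes and no outlying library. That run checks the code and cannot show how the fit performs at the spread of these libraries. Shares of summed FPKM were compared by exact permutation. Named genes were all members, up to 4 of each other list by adjusted p, Nat10, Nppa and Rcan1, and the 3 most correlated genes. Other genes are said to be picked after their values were seen, or named as near 0. The members and lists were chosen with earlier results of these data known, and 1 atrial marker is not reported here. Transcripts came from GENCODE M39, motif windows and microRNAs from RefSeq. Alternatives covered pseudocount, filter, scaling, variance model, voom, a replicate block and each library left out. Leaving out both libraries that stand apart, a minimum of 20 reads and canonical lengths were chosen after seeing the data. Figures used matplotlib 3.10.9.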

Additional observations from a re-analysis of the deposited data

How the results depend on the processing

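Myh7 (log2 fold change 5.19 to 5.83), Mylk4 (-3.91 to -2.74) and Myl1 (-1.74 to -0.78) kept their direction and side of the threshold in every alternative that tested them. The count of members called, 3 as reported, was 2 with a mean of at least 5 FPKM (where Myl1 is not tested), 4 with no filter (Myl4 added) and under quantile normalization (Myl3 added), 5 with array weights (Myh7b and Mylk3 added), 3 to 5 with each library left out, and 5 without Nat10-CKO replicate 3. Genes called over all numbered 3285 to 5055 with each library left out. The sign of Myh6 turned under quantile normalization (0.18), protein-coding genes rescaled (0.091), array weights (0.16) and without both libraries that stand apart (0.30), and with each library left out it ranged from -0.39 to 0.39. The sign of Myl3 turned without mitochondrially encoded genes (-0.10) and when scaled by total reads (-0.024), and it ranged from -0.14 to 0.22 with each library left out. Higher calls were 60.4% of all calls, 48.7% without mitochondrially encoded genes and 72.4% with protein-coding genes rescaled, which moved the median log2 fold change of all tested genes from 0.03 to 0.17. The cause of these turns was not tested.

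Replicate numbers did not pair the libraries (correlations of 0.0649, 0.0373 and 0.105 between same-numbered deviations). With a replicate block 4390 genes and 3 members passed, and the exact paired sign-flip permutation test of each share gave p = 0.25, the smallest 3 pairs allow. The Myh7 share difference was 16.2 to 31.7 percentage points with each library left out, that of Mylk4 -17.8 to -13.9, that of Myl4 0.00367 to 0.00531 and that of Myl7 0.00749 to 0.0340. Those are shares of FPKM, which divide Myl4 by its long table length. The Myl4 difference was 0.0787 percentage points both by reads and at canonical lengths, and that of Myl7 0.00522 by reads and 0.00718 at canonical lengths. For Myh7 the difference was 25.2 by reads and 25.5 at canonical lengths, and for Mylk4 -23.4 by reads and -12.3 at canonical lengths. Depth limits Myl7 (2 to 13 reads) and Mir208a (8 to 35 reads).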
